A study of Homo sapiens with 5 samples.

Results

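The 9 keratin genes KRT7, KRT8, KRT10, KRT18, KRT19, KRT20, KRT23, KRT80 and KRT86 were followed in single SW480 cells recovered from zebrafish xenografts. They were chosen by symbol from the 42 keratin genes (KRT and a number) found among 21191 human genes listed in any library. 8 of the 9 were listed in all 5 libraries, and KRT20 was listed in 3.

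SW480 is an established human colorectal cancer line. The cells carried a GFP lentiviral vector and were injected into zebrafish larvae at 2 days post fertilization. Tumors were dissected at 1 or 4 days post injection (dpi), dissociated in medium with an inhibitor of anoikis, and sorted 1 cell per well into 384-well plates for SORT-seq, which counts 1 unique molecular identifier (UMI) per captured 3′ end. Libraries 6, 7 and 8 are the plates of 1 dpi and libraries 10 and 11 those of 4 dpi. Both groups were the same GFP-carrying line in the same kind of host, so they differed by label only in the time since injection. Each time point was a pool of many tumors, and nothing says that its plates were filled from different pools. The p-values therefore measure the spread between plates, which may be technical.

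Keratins build the intermediate filaments of epithelial cells. A filament is an obligate pairing of an acidic type I chain (here KRT10, KRT18, KRT19, KRT20 and KRT23) with a basic type II chain (KRT7, KRT8, KRT80 and KRT86). KRT8 with KRT18 is the pair of simple epithelia, KRT19 joins it in intestinal lining cells, KRT20 marks differentiated intestinal cells, KRT7 marks ductal epithelia, KRT10 the upper layers of the epidermis, and KRT86 is a hair keratin.

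Cells with over 2000 genes and under 25% of UMIs from mitochondrial genes were kept, which left 826 of 1920 wells, 142 to 228 per library at 1 dpi and 132 and 161 at 4 dpi. The kept cells held 3793696 to 7508622 human UMIs per library. Median UMIs per cell were 25957 to 36212 in the 1 dpi libraries, 26138 in library 10 and 18830 in library 11. Epithelial markers were all detected, with EPCAM in 100% of cells, whereas the 5 leukocyte markers summed to at most 8.36 and the 5 endothelial markers to at most 2.26 CPM (UMIs per 1000000 human UMIs) in any library. The 5 fibroblast markers summed to 23.0 to 27.2 CPM at 1 dpi and to 32.9 and 44.1 at 4 dpi, without overlap. LUM gave 597 of their 742 UMIs, COL1A2 had none, and COL1A1 had 1.46, 4.09 and 2.72 CPM at 1 dpi and 16.6 and 7.12 at 4 dpi. Of the colorectal markers CDX1 had 1 UMI in all cells and CDX2 was found in 31.1% of cells. The 384 well barcodes are the same on every plate by design.

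The genes lie in the 2 human keratin clusters. In GENCODE release 44 on hg38, the build named in the submitters' processing notes, the type II genes are on chromosome 12, with KRT80 at chr12:52168996-52192014 (minus strand), KRT7 at chr12:52232520-52252186 (plus), KRT86 at chr12:52249300-52309163 (plus) and KRT8 at chr12:52897187-52949954 (minus). The type I gene KRT18 lies beside KRT8 at chr12:52948871-52952906 (plus), and the annotated spans of these partners overlap at their 5′ ends. The other type I genes are on the minus strand of chromosome 17, with KRT10 at chr17:40818117-40822614, KRT20 at chr17:40875889-40885242, KRT23 at chr17:40922700-40937646 and KRT19 at chr17:41523617-41528308. The span of KRT86 also covers KRT81, a close hair-keratin paralog on the opposite strand, and the start of KRT86 overlaps the end of KRT7.

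Reads of 60 bases could be shared between copies of a keratin gene. Of the 441 windows of this length in the last 500 bases of the main (MANE Select) transcript, 24.7% of those of KRT18 and 13.4% of those of KRT8 also occurred in annotated transcripts of other genes, and the leading ones were pseudogenes such as KRT18P11 and KRT8P3. No window of the other 7 keratins did, and KRT86 and KRT81 shared none with each other. The treatment of such reads and of the strand in the authors' counting is not given, so KRT8 and KRT18 values may include or lack some pseudogene reads.

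The simple-epithelial keratins dominated. KRT8 stood at 1923, 2172 and 2420 CPM in the 3 libraries of 1 dpi (always in the order 6, 7, 8) and at 1888 and 1900 in the pair of 4 dpi (10, 11). Its partner KRT18 was present at 839, 1152 and 1343 CPM at 1 dpi and at 749 and 943 at 4 dpi. KRT19 followed with 653, 748 and 697 CPM at 1 dpi and 473 and 624 at 4 dpi. In KRT8 and KRT19 every 4 dpi library lay below every 1 dpi library, while the KRT18 ranges overlapped because library 6 was low.

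The 6 remaining keratins together made up 7.31% to 11.9% of the UMIs of the 9. KRT80, a type II keratin found in many epithelia, had 194, 199 and 184 CPM at 1 dpi and 199 and 162 at 4 dpi. KRT10 had 98.2, 109 and 98.9 at 1 dpi and 126 and 110 at 4 dpi. KRT10 was a little higher in both 4 dpi libraries than in any 1 dpi library, and KRT80 overlapped.

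KRT23, a type I keratin of the chromosome 17 cluster, had 40.9, 41.4 and 35.9 CPM at 1 dpi and 59.8 and 53.5 at 4 dpi, with no overlap. KRT7 had 19.3, 25.8 and 24.7 at 1 dpi and 27.2 and 24.8 at 4 dpi, with overlap. KRT86 was low throughout, at 17.3, 11.3 and 8.78 at 1 dpi and 6.05 and 4.22 at 4 dpi, and these did not overlap. KRT20 had 2, 1 and 0 UMIs at 1 dpi and 6 and 0 at 4 dpi, all from 5 cells. The libraries with 0 allow shares of cells with a UMI of up to 1.84% and 1.86%, so KRT20 was at or near the limit of detection. Its level was not tested.

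The order of levels was the same at both times: KRT8, KRT18, KRT19, KRT80, KRT10, KRT23, KRT7, KRT86, KRT20. A UMI stands for 1 transcript end, so these levels need no division by length. Within a time point no 2 neighbours in this order had overlapping libraries.

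**Figure D1:**
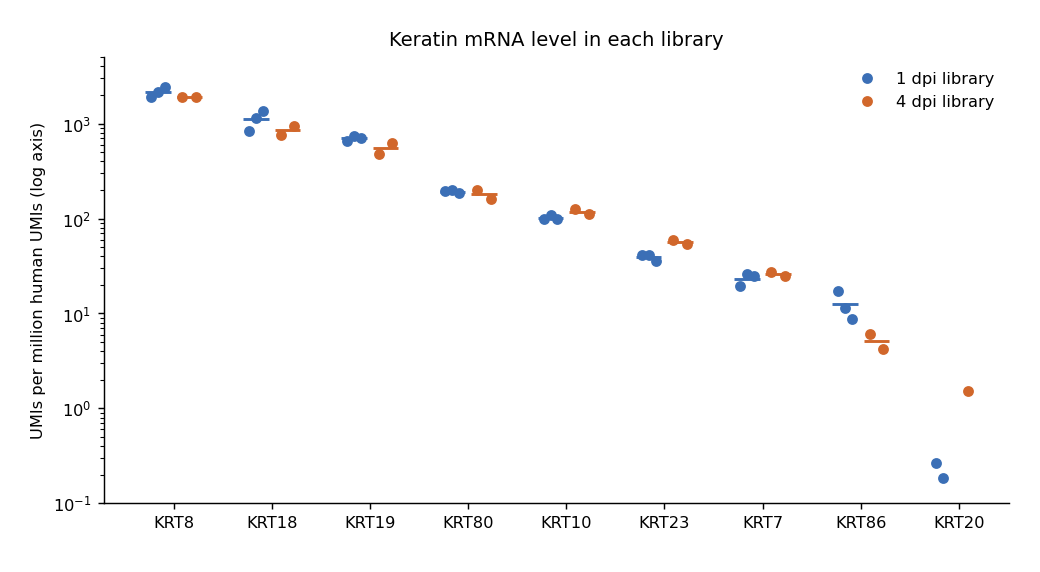
Level of each keratin in CPM (log axis), with a point for each library (blue, 1 dpi; orange, 4 dpi) and a line at the mean of a time point. KRT8 lies near 2000 and KRT86 between 4.22 and 17.3, and the KRT20 points, of which those at 0 are not drawn, rest on 1 to 6 UMIs.

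The 9 genes took 0.379%, 0.446% and 0.481% of all UMIs at 1 dpi and 0.353% and 0.382% at 4 dpi. They made up 82.0% to 88.4% of the UMIs of all 42 keratins. KRT8 alone gave 48.7% to 53.5% of the UMIs of the 9, KRT18 21.2% to 27.9% and KRT19 13.4% to 17.2%. Most of the remainder outside the 9 was KRT5, a basal-layer type II keratin, at 531, 735 and 701 CPM at 1 dpi and 619 and 446 at 4 dpi, close to the level of KRT19.

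The balance of filament partners was read as a ratio. The ratio of type I to type II UMIs was 0.757, 0.852 and 0.825 at 1 dpi and 0.664 and 0.827 at 4 dpi. The ratio averaged 0.811 ± 0.0487 (SD over 3 libraries) at 1 dpi against 0.746 ± 0.115 (2 libraries) at 4 dpi. The share of UMIs of the 9 averaged 0.435% ± 0.0521 against 0.368% ± 0.0207. For the share and the ratio, in this order, neither passed an exact permutation test (two-sided, over the libraries; p = 0.3 and p = 0.6; both 0.6 after adjustment over 4 such values). The ratios of KRT18 and of KRT19 to KRT8 gave p = 0.4 and p = 0.5 by the same exact test. With 3 libraries against 2 the smallest p this test can give is 0.1. The ratio rested on library 10: the difference was 0.016 without it and -0.147 without library 11. Every cell had a UMI of a type II member, and 1 cell of 826 had none of a type I member.

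To find which keratins changed with time, UMIs were summed per library and fitted across 12638 genes with edgeR's quasi-likelihood test. 4 of the 8 keratins tested passed an adjusted p of 0.05, against 27.6% of all genes. KRT18 and KRT19 fell, the hair keratin KRT86 fell most, and KRT23 rose. The median log2 change of the 8 was -0.17, beside 0.00206 for all genes. 5 of the 8 had libraries that did not overlap between the time points, which is near the 54.1% of all genes for which this held.

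KRT18 fell by 0.42 on the log2 scale (SE 0.15; edgeR adjusted p = 0.0434), which is a fall to 0.748 of the 1 dpi level. This call did not hold with DESeq2 or without library 7, 8 or 10, with adjusted p up to 0.287. KRT19 fell by 0.38 (SE 0.11; edgeR adjusted p = 0.0176), to 0.769 of the 1 dpi level. Without library 7 it fell by 0.31, without library 10 by 0.21 and with a maximum of 15% mitochondrial UMIs by 0.19, and none of these passed.

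KRT23 rose by 0.49 on the log2 scale (SE 0.13; edgeR adjusted p = 0.00933), 1.41-fold, and lost the call without library 10 only. After each cell was thinned to 5000 UMIs its rise was 0.78 and still passed. KRT86 changed by -1.33 (SE 0.33; edgeR adjusted p = 0.00706), to 0.398 of the 1 dpi level, on 233 UMIs at 1 dpi and 40 at 4 dpi. The 10 cells with the most KRT86 UMIs held 76.9% to 87.5% of them in each library. With KRT81 added to KRT86 the sum changed by -0.78 (edgeR adjusted p = 0.0558), and the KRT86 call was also lost without library 11 and with limma on means over cells. After thinning to 5000 UMIs KRT86 was not among the genes tested.

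The other 4 did not pass. KRT8, in every cell, differed by -0.22 (SE 0.096; edgeR adjusted p = 0.0955), and passed at -0.30 only without library 6. KRT10 differed by 0.19, KRT7 by 0.15 and KRT80 by -0.12. KRT10 passed, at 0.33, when cells with 15% or more mitochondrial UMIs were left out.

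**Figure D2:**
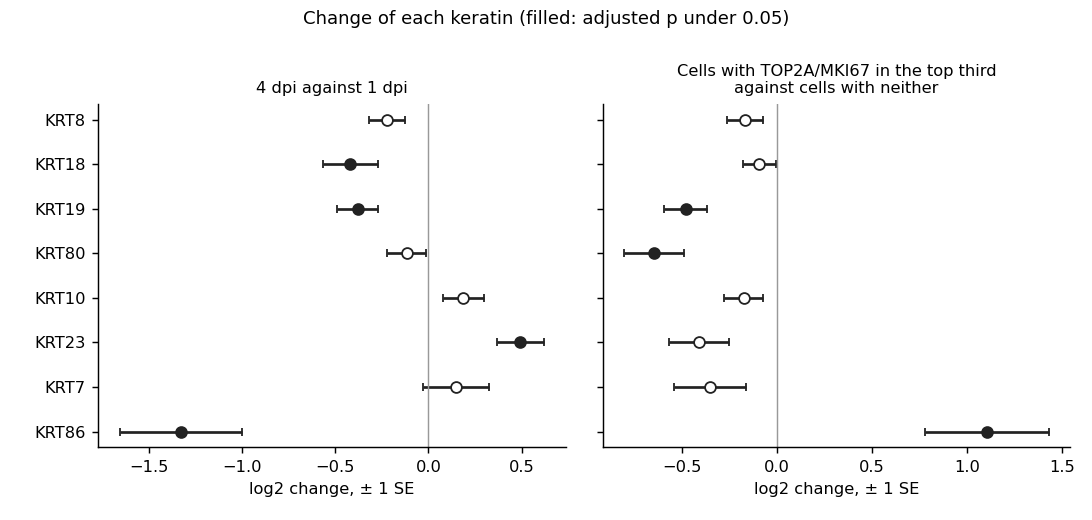
Log2 change of the 8 tested keratins with its standard error, between 4 and 1 dpi (left) and between cells high and low in TOP2A and MKI67 (right). Filled points passed the adjusted p of 0.05, which were KRT18, KRT19, KRT23 and KRT86 on the left and KRT19, KRT80 and KRT86 on the right.

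5 further keratins had enough UMIs for the test, and 3 of these fell by more than any of the 8. KRT17, a stress-induced type I keratin, had 79.8, 171 and 148 CPM at 1 dpi and 23.2 and 35.1 at 4 dpi, and changed by -2.21. KRT16, induced with it in wounded skin, had 14.6 to 32.4 at 1 dpi and 4.79 and 1.58 at 4 dpi, and changed by -2.96. KRT15, a basal keratin, had 22.6 to 26.9 at 1 dpi and 4.29 and 4.48 at 4 dpi, and changed by -2.55. No 4 dpi library reached the 1 dpi range in these genes, and the largest adjusted p of the 3 in edgeR was 0.000103. KRT5 and KRT81 did not pass.

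Within a library the keratins differed in how evenly cells shared them. KRT8 was in 100% of cells, KRT18 in 98.7%, KRT19 in 95.8%, KRT10 in 82.3%, KRT80 in 79.8%, KRT23 in 40.8%, KRT7 in 35.4%, KRT86 in 99 of 826 cells and KRT20 in 0.605%. The plates held no human cell type that lacks these genes, so no background share could be set beside these.

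Per cell, the 90th percentile of KRT8 was 4.06 to 5.92 times the 10th. For KRT18 this ratio was 5.23 to 8.53 and for KRT19 8.39 to 13.7, so KRT19 had the widest ratio of these 3 in each library. These counts were not thinned, and KRT19 had the fewest UMIs of the 3, with a median of 8 to 21.5 per cell. The median of KRT8 was 32 to 66. The part of counting noise in this order was not tested. The KRT8 ratio was higher in both 4 dpi libraries (5.92 and 5.36) than in those of 1 dpi (4.35, 4.51 and 4.06), and the KRT18 ratio likewise (8.35 and 8.53 against 6.12, 5.23 and 6.45). Cells of library 11 had the fewest UMIs. The percentile ratios were not computed at equal depth, so the part of depth in them was not tested. After thinning to 5000 UMIs another measure of spread, the variance to mean ratio, was read. For KRT8 it was 4.11, 3.82 and 4.05 at 1 dpi and 7.08 and 4.95 at 4 dpi, higher in both. For KRT18 it was 2.54, 2.37 and 3.70 at 1 dpi and 3.13 and 3.42 at 4 dpi, which overlapped. For KRT19 it was 2.24 to 3.88, below KRT8 in each library.

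KRT80 showed its lower median where its library level did not. The median cell had 1.43, 1.38 and 1.43 KRT80 UMIs per 10000 at 1 dpi and 0.838 and 0.877 at 4 dpi, without overlap. Its 90th percentile was 5.39, 4.77 and 3.81 at 1 dpi and 4.77 and 4.94 at 4 dpi. The middle of the distribution was thus lower at 4 dpi while the upper end overlapped.

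**Figure D3:**
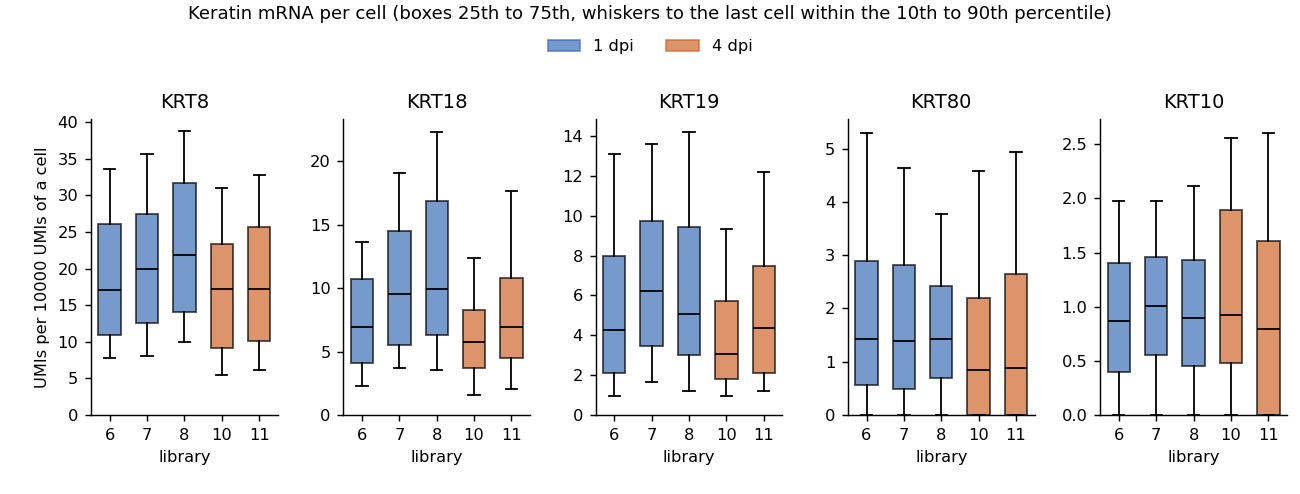
UMIs per 10000 UMIs of a cell for the 5 keratins found in most cells, by library (blue, 1 dpi; orange, 4 dpi), with the median, the 25th to 75th percentile as a box and whiskers reaching to the outermost cells within the 10th and 90th percentile. The KRT80 median is near 1.4 in each 1 dpi library and under 0.9 in both 4 dpi libraries.

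After thinning to 5000 UMIs, which left out 11 cells, a KRT80 UMI was found in 50%, 47.1% and 50% of cells at 1 dpi and in 40.8% and 44.7% at 4 dpi. A KRT23 UMI was found in 13.7%, 13.6% and 11.9% of cells at 1 dpi and in 23.1% and 21.4% at 4 dpi. The groups did not overlap for these 2 genes and did for the other 7. Both reached the smallest p of the exact permutation test, p = 0.1 (0.45 after adjustment over 9 keratins), so neither passed. KRT20 had no UMI left after thinning and was counted among the 9, so its test could show nothing. The share of all genes without overlap was not counted for detection, so no background stands beside the 2 of 9. For levels this share was 54.1%. Before thinning KRT23 was in 33.1% to 44.4% of cells at 1 dpi and 42.9% and 47.7% at 4 dpi, which overlapped.

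The abundant keratins rose and fell together from cell to cell. Over 815 thinned cells the Spearman correlation of KRT8 with KRT18 was 0.449 to 0.560 in the 5 libraries (mean 0.496), that of KRT8 with KRT19 0.311 to 0.510 and that of KRT18 with KRT19 0.367 to 0.436. Cells of a library share their plate and sequencing, and these values are given as a description. Among 958 genes found in at least 50% of thinned cells, KRT18 and KRT19 were the 2 genes most like KRT8, and each of the 3 had the other 2 as its closest. After them came S100A4 for KRT8, ACTB for KRT18 and ANXA2 for KRT19, with mean correlations of 0.377, 0.289 and 0.281. Next were RPL7A and GAPDH for KRT8, GAPDH and ACTG1 for KRT18, and S100A11 and PKM for KRT19, at 0.264 to 0.367.

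KRT80 had low or negative correlations with these 3. Its correlation with KRT8 was -0.251 to 0.000549 and with KRT18 -0.201 to 0.0295. With KRT19 it was -0.131 to -0.0249 in the 1 dpi libraries and 0.0687 and 0.194 in those of 4 dpi. The genes most like KRT80 were KLF6, RSRC2, GADD45A, SNHG15 and SLC3A2, with mean correlations of 0.263 to 0.303. KLF6 is an early-response transcription factor and GADD45A a stress-inducible growth-arrest gene. KRT80 was also lower in cells with more mitochondrial UMIs (-0.414 to -0.141), whose part in its pattern was not tested. KRT10 was negatively related to KRT8 in all 5 libraries (-0.308 to -0.0626) and had no gene above a mean of 0.193, that of SNHG15, which is also among the 5 of KRT80. Low UMI numbers limit the correlations of KRT10 and KRT80.

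**Figure D4:**
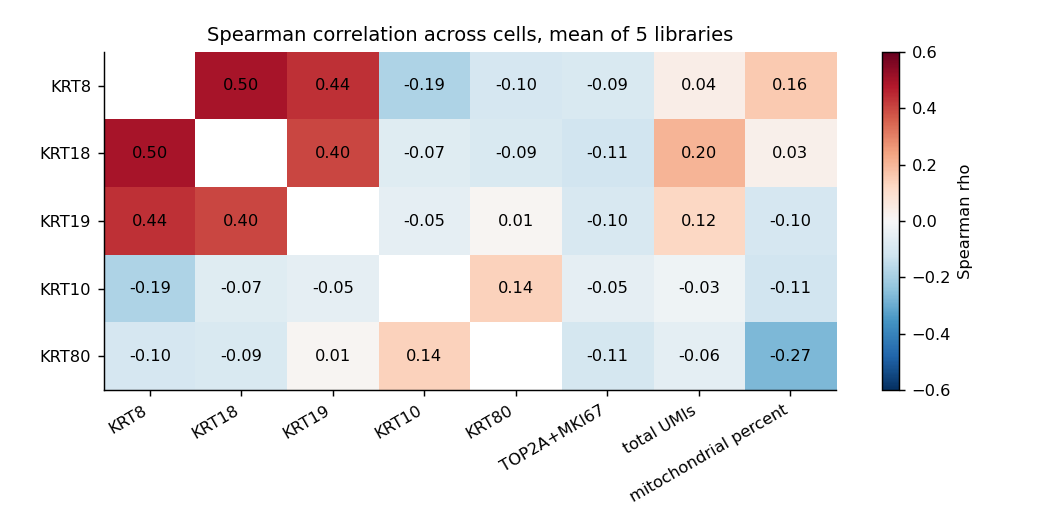
Mean over the 5 libraries of the Spearman correlation across thinned cells, between 5 keratins (rows) and the same keratins, TOP2A plus MKI67, total UMIs and mitochondrial percent (columns). KRT8, KRT18 and KRT19 form a block of 0.40 to 0.50, and KRT80 is at -0.10 to 0.01 with these and lowest, at -0.27, with mitochondrial percent.

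The relation to the cell cycle was read through TOP2A, a DNA topoisomerase of dividing cells, and MKI67, which encodes the Ki-67 antigen. Both were higher at 4 dpi: TOP2A had 46.9, 42.2 and 43.5 CPM at 1 dpi and 126 and 166 at 4 dpi (3.23-fold, edgeR adjusted p = 2.1e-07), and MKI67 51.3, 46.6 and 30.1 against 107 and 142 (2.84-fold, edgeR adjusted p = 1.6e-05). A UMI of either was found in 36.2% to 49.3% of cells at 1 dpi and in 53.0% and 57.1% at 4 dpi. In each library the third of cells with the most UMIs of the 2 genes, the cycling-high cells (44 to 76), was compared with the cells that had none, the cycling-low cells (62 to 132), with the library as a block.

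The cycling-high class was not the same at both times. Its cells had 107 to 108 CPM of TOP2A and 73.7 to 120 of MKI67 at 1 dpi, and 323 and 403 CPM of TOP2A and 275 and 344 of MKI67 at 4 dpi, while cycling-low cells had 0 of both by construction. The lower bound of the class was 0.226 to 0.515 UMIs of the 2 genes per 10000 at 1 dpi and 0.724 and 1.29 at 4 dpi. The classes also differed in other ways. Cycling-high cells had more UMIs in each library, with medians of 26916 to 37673 against 16016 to 31646. Their median mitochondrial share was 15.4% and 15.7% at 4 dpi against 9.05% and 9.64% in the low cells, while at 1 dpi it was 11.0% to 12.1% against 9.82% to 13.1%. The part of these in the keratin differences was not tested beyond the values given with a lower mitochondrial maximum and after thinning.

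3 of the 8 keratins tested passed in this comparison, against 15.1% of 11476 genes: KRT19 and KRT80 were lower in cycling-high cells and KRT86 was higher. 3 of the 8, KRT10, KRT19 and KRT80, were lower in the cycling-high cells of all 5 libraries, which held for 13.7% of all genes. The median log2 difference of the 8 was -0.26, and -0.00968 for all genes. Without the library as a block edgeR called none of the 8, 3 of which had an unadjusted p under 0.05, and the count over all genes was 700. DESeq2, with the block, called KRT19 alone.

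KRT19 had 692, 754 and 733 CPM in the cycling-low cells of 1 dpi and 596, 684 and 606 in the cycling-high cells of the same plates. At 4 dpi it had 663 and 794 in low and 284 and 416 in high cells, so that the high cells of 4 dpi lay under all others. The difference over all libraries was -0.48 on the log2 scale (SE 0.11; edgeR adjusted p = 0.00568), and it was -0.34 to -0.57 with any 1 library left out and passed each time. It was -0.34 with a maximum of 15% mitochondrial UMIs and -0.42 after thinning, and both passed. Fitted in the 1 dpi libraries alone, the KRT19 difference was -0.21 and did not pass (edgeR adjusted p = 0.159). Over thinned cells the Spearman correlation of KRT19 with TOP2A plus MKI67 was -0.070, -0.0010 and 0.0079 at 1 dpi. At 4 dpi it was -0.179 and -0.249.

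KRT80 had 236, 236 and 197 CPM in low and 134, 172 and 170 in high cells at 1 dpi. At 4 dpi it had 224 and 287 in low and 188 and 70.9 in high cells. High cells were lower on every plate, most in library 11. The difference was -0.65 (SE 0.16; edgeR adjusted p = 0.00645), was lost with DESeq2, without the library block and without library 6, and was -0.55 with the lower mitochondrial maximum and -0.69 after thinning, both of which passed.

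KRT86 had 14.7, 4.51 and 3.05 CPM in low and 18.4, 22.5 and 17.3 in high cells at 1 dpi. At 4 dpi it had 7.28 and 4.48 in low and 8.12 and 2.70 in high cells, on 4 to 12 UMIs per sum. The difference of 1.10 (SE 0.33; edgeR adjusted p = 0.0254) was lost in 8 of 13 alternatives, among them those without library 7 and without library 8. KRT86 was not among the genes tested after thinning in this comparison either.

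The simple-epithelial pair itself did not pass. KRT8 differed by -0.17 (SE 0.095; edgeR adjusted p = 0.261) and KRT18 by -0.09 (SE 0.087; edgeR adjusted p = 0.531). KRT23 differed by -0.41, KRT7 by -0.35 and KRT10 by -0.17. Of the 5 other keratins tested KRT17 was lower in cycling-high cells, by 0.90 on the log2 scale (edgeR adjusted p = 0.000355).

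**Figure D5:**
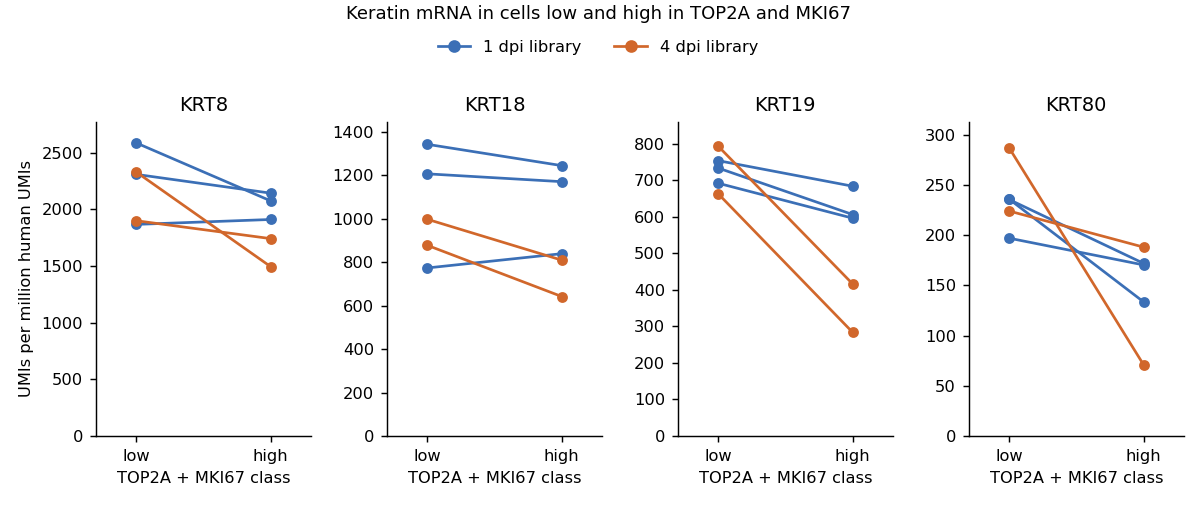
CPM in the cycling-low and cycling-high cells of each library (lines join the classes of a plate; blue, 1 dpi; orange, 4 dpi), for KRT8, KRT18, KRT19 and KRT80. KRT19 in high cells is 596 to 684 at 1 dpi and 284 and 416 at 4 dpi, while its low cells overlap between the time points.

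Whether the difference between classes changed with time was tested as an interaction. It passed for 1 of the 8, KRT19, against 0.741% of genes. The KRT19 difference, fitted apart, was -0.92 at 4 dpi (SE 0.12) and -0.21 at 1 dpi (SE 0.093), where it did not pass. The difference between these in the joint fit was -0.71 (SE 0.15; edgeR adjusted p = 0.0108). Seen the other way, KRT19 did not pass between time points in cycling-low cells, at -0.08, and fell by 0.78 in cycling-high cells (edgeR adjusted p = 0.000775). The contrast between classes was wider at 4 dpi in TOP2A and MKI67 themselves, so a change with time at equal levels of these genes was not tested. For the interaction after thinning the cells were also split anew on the thinned counts. Depth and classes thus changed together there. The interaction was -0.57 without library 10, -0.61 with the mitochondrial maximum of 15% and -0.37 after thinning, and in edgeR it passed in none of these 3. Without library 10 KRT80 passed in place of KRT19, at -1.36.

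Time changes of the other members had the sign of the whole libraries in both classes, except KRT80, which did not pass and differed by 0.11 in cycling-low and by -0.23 in cycling-high cells. In cycling-high cells KRT18 fell by 0.51 and KRT86 changed by -1.77, and both passed. With KRT19 these were 3 of the 8 members, beside 18.3% of 10827 genes called. In cycling-low cells KRT23 rose by 0.62 and was the only member to pass. This 1 of 8 is near the 12.8% of 11240 genes called there. The interaction did not pass for KRT18, KRT86, KRT23 or KRT80, so their changes are not shown to differ between classes.

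The partners of keratin filaments gave mixed changes with time. The shares called in these lists are to be read against the 27.6% of all genes called with time and the 15.1% called between cycling classes, with medians of 0.00206 and -0.00968. Of 9 desmosome genes tested 1 rose and 1 fell, which were the cadherin DSC2 (0.82) and plakoglobin, JUP (-0.55). Of 10 hemidesmosome and plakin linker genes 1 rose and 1 fell, the hemidesmosomal collagen COL17A1 (1.75, on 1.04 to 10.6 CPM) and plectin, PLEC (-0.61), which ties keratin to other filaments. Of 20 keratin-binding and filament-organizing genes 7 (35%) fell and none rose by edgeR, with a median of -0.13, and NDEL1 fell most (-0.82). At an unadjusted p under 0.05 there were 7 and 1, and by DESeq2 5 and 0. JUP and PLEC were also lower in cycling-high cells, by 0.47 and 0.66 on the log2 scale.

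Vimentin, the intermediate filament protein of mesenchymal cells, had the largest rise of the lists after PHGR1. VIM had 17.7, 22.5 and 19.0 CPM at 1 dpi and 87.8 and 107 at 4 dpi, a log2 change of 2.28 (SE 0.14; edgeR adjusted p = 3.3e-08). The fibroblast marker COL1A1 and the sum of the fibroblast markers were also higher at 4 dpi, at the levels given above, and their part in the VIM difference was not tested. VIM was the 1 called gene of 7 other intermediate filament genes. VIM remained below KRT8, KRT18, KRT19, KRT80 and KRT10 in both 4 dpi libraries. In the cycling comparison the nuclear lamin LMNB1 was higher (1.87) and LMNA lower (-0.28) in cycling-high cells, 3 of 7 genes of that list being higher and 1 lower.

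Of 18 genes of the simple epithelial surface and junctions 3 rose and 4 fell with time (38.9% called, beside 27.6% of all genes), with a median of -0.15. The largest rise was that of the claudin CLDN3 (0.73) and the largest fall that of occludin, OCLN (-1.16). In cycling-high cells 4 of 17 (23.5%, beside 15.1% of all genes called) were lower and none was higher by edgeR (5 and 0 at an unadjusted p under 0.05, 2 and 0 by DESeq2). The hemidesmosome and plakin list had 2 of 9 lower there, PPL most (-0.84), and the keratin-binding list 2 of 18 lower and 1 higher, PRKCE (-1.49) and YWHAQ (0.38). The desmosome list had 1 of 9 lower.

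Of 7 colonocyte differentiation genes tested 2 rose with time and none fell by edgeR or DESeq2, and 2 each way had an unadjusted p under 0.05. PHGR1, expressed in the lining of the gut, rose by 2.44 on the log2 scale from 36.2 to 43.3 CPM in the 1 dpi libraries to 209 and 227 in those of 4 dpi (edgeR adjusted p = 8.8e-10). KRT20, the keratin of differentiated intestinal cells, was at or near the detection limit at both times. None of 6 passed between cycling classes by edgeR or DESeq2, and 2 had an unadjusted p under 0.05.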

How the data were processed

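Single SW480 cells were measured by SORT-seq (CEL-Seq2 chemistry) on 5 plates, 3 of 1 dpi and 2 of 4 dpi. The authors took wells and UMIs from read 1, aligned read 2 (60 bases) with BWA to a human reference transcriptome (hg38 in the submitters' processing notes; no version given) and deposited raw UMI counts per gene and well, without normalization or filtering.

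Genes listed in all libraries and seen in at least 10 wells were kept, ERCC spike-ins were left out of the totals, and no doublet caller was run. UMIs were summed per library, or per library and cycling class, since cells of a plate are not replicates, and fitted with edgeR 4.0.16 in R 4.3.3 (TMM, filterByExpr, quasi-likelihood test, two-sided, Benjamini-Hochberg over all genes tested, threshold 0.05). TOP2A and MKI67 split the cells, remained among the genes fitted and are not reported as results of that split. Standard errors were obtained from the log2 change and the F statistic. For detection, variance to mean ratios and correlations each cell was thinned to 5000 UMIs. In the thinned fits the cycling comparison kept the classes of the full counts. The interaction used classes drawn anew from the thinned counts. DESeq2 1.42.0, limma 3.58.1 (log2 of mean CPM plus 1), other size factors and cell filters, and leaving out each library were alternatives. Fits within 1 time point or 1 cycling class, the sum of KRT81 and KRT86 and the lower mitochondrial maximum for the interaction were added after the data had been seen. Intervals and floors (3 counts) cover counting error only.

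The 9 keratins were given, and the gene lists were chosen with earlier results of these data known. Named genes were the 9, other keratins that passed the test, and from each list the called gene with the largest rise and fall in each comparison, with the genes most correlated with a keratin found in most cells. PLEC was named in the cycling comparison, and KRT5 and KRT81, outside this rule. 1 gene that this rule names is not reported here. The scripts were tested on simulated counts. The sample labels give no flow cell, and an identifier in the names under which the libraries were deposited was read as one. By these names the libraries came from 2 flow cells, each with both time points.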

Additional observations from a re-analysis of the deposited data

Results flagged for a closer look

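The difference of KRT19 between cycling-high and cycling-low cells differed between the time points in a test of the difference itself. Its log2 value was -0.92 at 4 dpi and -0.21 at 1 dpi, and the interaction was -0.71 (SE 0.15; edgeR adjusted p = 0.0108), over alternatives -0.89 to -0.37 with adjusted p from 0.000813 to 0.795. KRT19 was lower in the cycling-high cells of 5 of 5 libraries, but its difference at 1 dpi, fitted apart, did not pass (edgeR adjusted p = 0.159). The cycling-high cells of 4 dpi also held more TOP2A (323 and 403 CPM) than those of 1 dpi (107 to 108), and the part of this wider contrast was not tested. The median mitochondrial share of the cycling-high cells was also higher than that of the low cells in both 4 dpi libraries (15.4% and 15.7% against 9.05% and 9.64%), and its part in the difference was not tested further than by the lower maximum.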

How the results depend on the processing

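With the time points as groups, 5 keratins passed without library 6, 2 without library 7 and 3 without library 8. Over all genes these fits called 2883, 2753 and 2941, against 3483. Without library 10 or 11 only 1 library of 4 dpi is left. KRT18, KRT19, KRT23 and KRT86 were at -0.28, -0.21, 0.40 and -1.63 without library 10. Without library 11 they were at -0.59, -0.58, 0.58 and -1.09. Thinning to 5000 UMIs lowered the count over all genes from 3483 to 1188. KRT80 turned to 0.15 with the mitochondrial maximum of 15% and ranged from -0.29 to 0.028 with a library left out, and after thinning KRT7 was -0.11 and KRT10 -0.0032; none of these passed. The flow cell, as read from the deposited names of the libraries, was also used as a term. It leaves both time points in each flow cell, and the fit kept the same 4 calls.

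In the cycling comparison DESeq2 called 1 keratin and 954 genes, the fit without the library block 0 and 700, and the count over all genes was 1116 with the lower mitochondrial maximum and 595 after thinning, against 1733. For the interaction the count over all genes was 25 with DESeq2, 186 without the low-count filter, 36 with the lower mitochondrial maximum, 5 after thinning, 50 with a split at the median and 38 to 118 with a library left out, against 85, and the keratins called were 0 with the lower maximum and 0 after thinning. KRT8, at -0.10, was 0.17 after thinning and -0.39 to 0.16 with a library left out. KRT23, at 0.10, was -0.18 with the median split and -0.20 to 0.51 with a library left out. KRT80 ranged from -1.36 to 0.37. The interaction values after thinning rest on classes drawn anew from the thinned counts, unlike those of the cycling comparison.

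The difference of the type I to type II ratio was -0.147 to 0.016 with a library left out. Keratins whose shares of cells with a UMI did not overlap numbered 2 at 5000 UMIs, 5 at 3000, 5 at 10000 and 4 without thinning, and 2 to 5 with a library left out. For these shares the number of all genes without overlap was not counted, so no background stands beside the numbers of keratins. The causes of these changes between settings were not tested. Other size factors, gene minimums of 1000 and 3000 and no mitochondrial maximum left the 4 calls with time in place. No paired analysis was possible because the libraries of the time points share no replicate number. The flow cell term above is a block by the identifier read from the names and pairs no libraries. KRT20 was too rare for a test of its level, and KRT86 rests on 273 UMIs.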
